A study of Oryza sativa Japonica Group with 6 samples.

Results

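A group of 8 Aux/IAA genes of rice had higher signals in anthers labelled dao than in wild-type anthers, and their values are described here array by array. They are IAA6, IAA9, IAA10, IAA12, IAA14, IAA15, IAA18 and IAA20, that is 8 of the 28 Aux/IAA genes found by name and of the 17905 genes with a probe set of their own. They were chosen by their values in this very comparison, in which each was at least 2-fold higher at an adjusted p of 0.05, so their differences are given as a description, without a test. Probe sets were found through the symbols and synonyms of each gene, with a leading Os dropped, and each of the 8 genes had 1 probe set of its own.

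The study set mature anthers of dao plants at anthesis, from a japonica variety, beside wild-type anthers of the same stage and kind of variety, and all plants were placed in the field to flower. DAO encodes a dioxygenase that inactivates the auxin indole-3-acetic acid by oxidation, and the question is how the anther transcriptome differs in its mutant. There were 3 arrays labelled dao and 3 labelled wild type, each a 1-colour Affymetrix rice array with total RNA of whole anthers and titled as a biological replicate. The description field of the labels speaks of young seedlings, and on the dao arrays of Epi-df seedlings, while titles, source names and tissue fields give mature anthers. What the mutant allele changes in the gene is not given in the labels.

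Aux/IAA proteins are short-lived repressors. They bind auxin response factors at auxin-responsive promoters and recruit TOPLESS-type co-repressors, which keeps transcription low. Auxin joins them to F-box receptors of the TIR1/AFB family, they are degraded, and the response factors become active. Many Aux/IAA genes are themselves transcribed within minutes of auxin treatment, so their transcripts are widely used as readouts of auxin response. In the anther, auxin is known to take part in filament growth, pollen maturation and the timing of dehiscence.

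The arrays had 57381 probe sets each, and their median deposited intensities ran from 8.82 to 9.12 on the arrays labelled dao and from 8.95 to 9.33 on the wild-type arrays. DAO itself had signals of 1551, 1168 and 1391 on arrays 1, 2 and 3 labelled dao, against 480, 883 and 686 on wild-type arrays 1, 2 and 3. It was thus higher on every array labelled dao, and since neither the lesion nor the position of the probe set along the mRNA is known here, this neither checks nor contradicts the labels. Every direction in the following is for arrays as labelled. In each group array 3 lay between the other two at most probe sets where those were at least 2-fold apart, in 1222 of 1236 on the arrays labelled dao and in 1891 of 1918 in wild type, so array 3 may not be independent of them and the differences are also given without both arrays numbered 3. The hybridisation controls, RNAs added at a fixed amount, were lower on every array labelled dao in 27 of 27 probe sets (median log2 -0.38), and the ubiquitin ratio of 3′ to 5′ signal, a sign of RNA integrity, was 3.00 ± 0.142 on the arrays labelled dao and 3.67 ± 0.283 in wild type (SD, n = 3 each). The part of these shifts in the results was not tested. In whole-anther RNA, fewer cells of a type and less RNA per cell cannot be told apart.

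Over all genes, 493 of 15612 tested, or 3.16%, were at least 2-fold higher on the arrays labelled dao at an adjusted p of 0.05 (limma with Benjamini-Hochberg adjustment). In either direction 3.95% of genes and 3.37% of the 34355 probe sets tested passed. All 8 Aux/IAA genes are among them by choice, so nothing is read from that share. In each of the 8 every array labelled dao lay above every wild-type array, which held for 27.1% of all genes tested. It also held for 8 of the 14 other Aux/IAA genes tested, but not for IAA4. IAA4 is counted apart from the 14 because it shares the name IAA20. The median log2 difference was 1.29 over the 8 genes and 0.11 over all genes tested. For the 8 genes both values follow largely from the choice. Without both arrays numbered 3, limma called 0 genes of any kind, the 8 included, with 1783 at an unadjusted p under 0.05. The median over the 8 genes was then 1.31, and all 8 had a log2 difference above 1. Array 3 was the middle one in 6 of the 8 genes among the arrays labelled dao and in 7 in wild type. Over all genes tested these shares were 63.1% and 59.9%. As the 8 genes were chosen on all 6 arrays, their kept differences are no check of the choice. At the edge of the choice, IAA6 and IAA18 lay just inside with log2 differences of 1.22 and 1.25, and IAA31, IAA1 and IAA13 just outside with 0.94, 0.88 and 0.88.

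**Figure D1:**
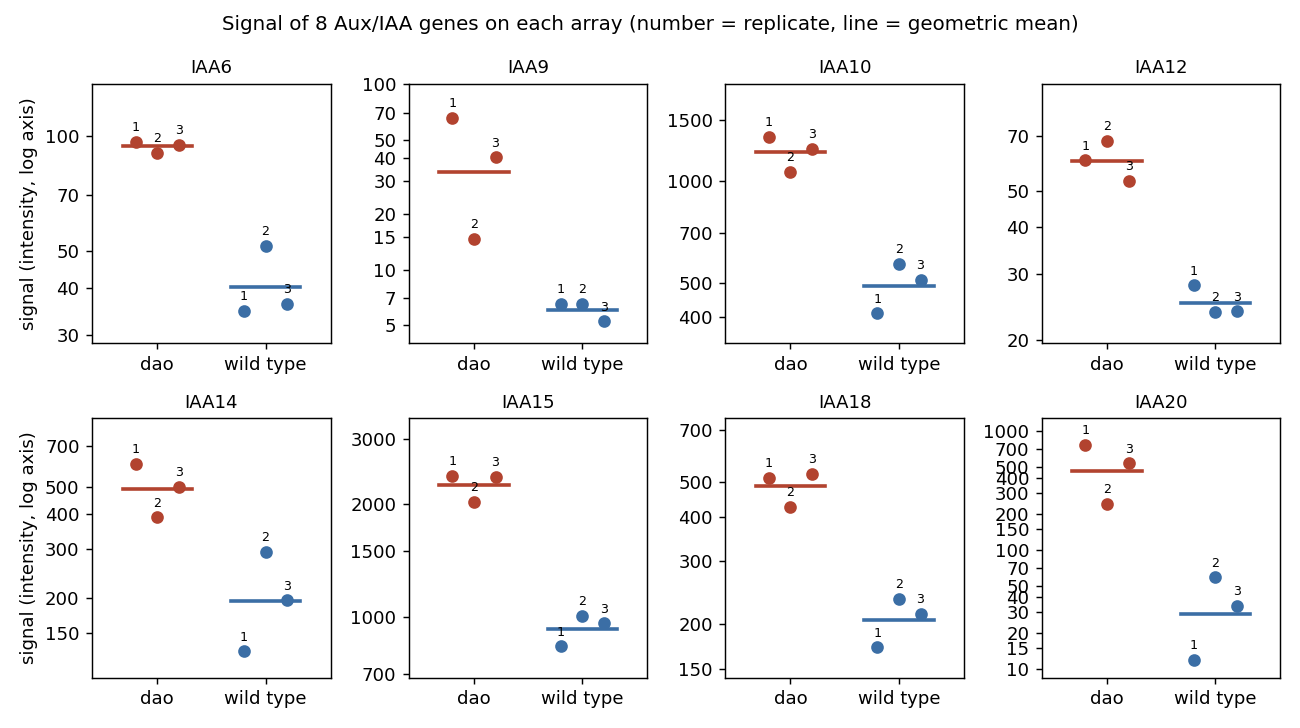
Signal of each of the 8 Aux/IAA genes on every array, on a log axis of deposited intensity with its own range per gene. Points are single arrays marked with the replicate number, lines are geometric means, and dao stands left of wild type. No dao point lies below a wild-type point, and dao 2 is the lowest dao array in 7 of the 8 genes.

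IAA20, known in rice for a part in drought and salt tolerance, had the largest difference of the 8. Its signal was 767, 243 and 533 on arrays 1, 2 and 3 labelled dao, and 12.0, 58.8 and 34.0 on wild-type arrays 1, 2 and 3. The groups were far apart, with the lowest array labelled dao 4.14 times the highest wild-type array, although the signal varied 3.15-fold among the arrays labelled dao and 4.91-fold among the wild-type arrays. The mean was 515 ± 262 on the arrays labelled dao and 34.9 ± 23.4 in wild type (SD, n = 3 each), a log2 difference of 4.01 and the third largest rise among all genes tested. Wild-type array 1 was the lowest of all, and the size of the difference depended on it, at 3.37 without that array and 4.52 without wild-type replicate 2.

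IAA9 had the next largest difference. Its signal was 66.0, 14.6 and 40.3 on arrays 1, 2 and 3 labelled dao, and 6.54, 6.55 and 5.24 on wild-type arrays 1, 2 and 3. The wild-type values were even and dim, and the arrays labelled dao were uneven, with a 4.52-fold gap between arrays 1 and 2. The log2 difference was 2.48, and 3.09 without dao replicate 2. IAA9 was the only one of the 8 whose wild-type mean (geometric mean 6.08) fell under the limit of signal 6.33 below which genes were not tested, so it was tested only because it was high on the arrays labelled dao. Its fold rests on wild-type values whose distance from background is unknown.

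The other 6 genes lay close together, between log2 1.22 and 1.33, or 2.33-fold and 2.51-fold. IAA14 had 604, 389 and 500 on arrays 1, 2 and 3 labelled dao, against 129, 293 and 196 on wild-type arrays 1, 2 and 3. Of the 6 it had the widest spread within both groups and the narrowest gap between them, with the lowest array labelled dao at 1.33 times the highest wild-type array. Its log2 difference of 1.33 became 1.03 without wild-type replicate 1 and 1.62 without wild-type replicate 2.

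IAA10, whose protein is known as a target of a rice dwarf virus protein that stabilises it, had 1342, 1063 and 1241 on arrays 1, 2 and 3 labelled dao, against 409, 571 and 511 on wild-type arrays 1, 2 and 3. Its mean was 1215 ± 141 on the arrays labelled dao and 497 ± 82.1 in wild type (SD, n = 3 each), and the log2 difference was 1.30. IAA15 had 2390, 2031 and 2366 on arrays 1, 2 and 3 labelled dao, against 832, 1003 and 959 on wild-type arrays 1, 2 and 3. Its lowest array labelled dao was 2.03 times its highest wild-type array (log2 difference 1.28).

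IAA18 had 513, 426 and 529 on arrays 1, 2 and 3 labelled dao, against 172, 236 and 213 on wild-type arrays 1, 2 and 3. Here array 3 labelled dao, and not array 1, was the highest, and the log2 difference was 1.25. IAA6, known in rice for effects on drought tolerance and tiller growth, had 96.3, 90.2 and 94.5 on arrays 1, 2 and 3 labelled dao, against 34.7, 51.4 and 36.3 on wild-type arrays 1, 2 and 3. The arrays labelled dao were within 1.07-fold of each other, the narrowest spread of any of the 8 genes, and the log2 difference was 1.22.

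IAA12 had 60.1, 67.8 and 53.1 on arrays 1, 2 and 3 labelled dao, against 27.9, 23.7 and 23.8 on wild-type arrays 1, 2 and 3. It went the other way from the rest within the groups, with array 2 the highest of those labelled dao and array 1 the highest in wild type. Its log2 difference was 1.26, and 1.31 without both arrays numbered 3. On these arrays IAA12 could not be set beside IAA11, its neighbour in the gene order of assembly ASM3414082v1, because no probe set is listed for IAA11.

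**Figure D2:**
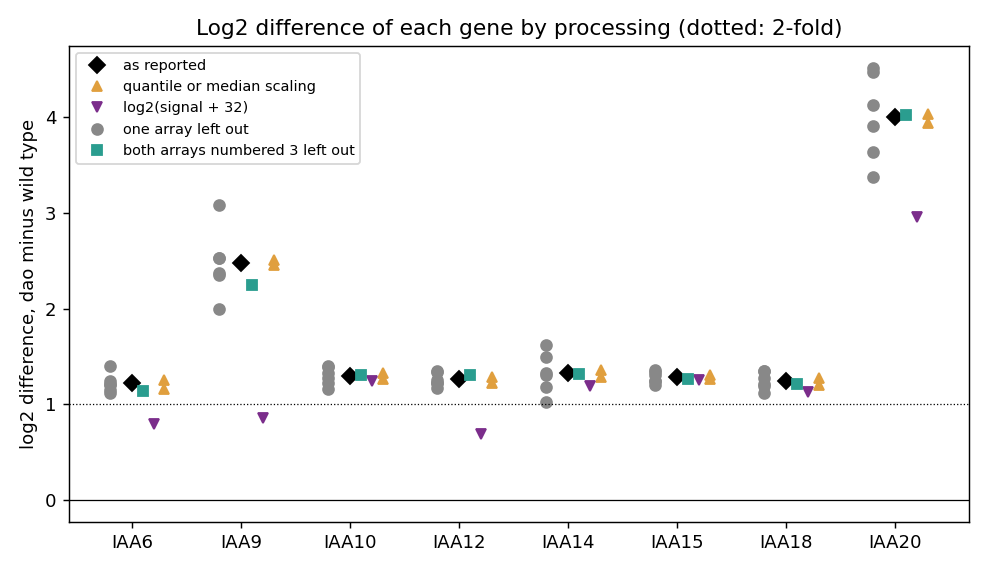
Log2 difference (dao minus wild type) of each gene as reported and under other processing: with 1 array left out, both arrays numbered 3 left out, quantile or median scaling, and log2(signal + 32). Every value is above 0, and IAA6, IAA9 and IAA12 fall below the dotted 2-fold line only with log2(signal + 32).

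Adding 32 to the signal before taking log2, which shrinks the folds of dim genes, put IAA6 at 0.79, IAA9 at 0.86 and IAA12 at 0.69, below 2-fold, and IAA20 at 2.96. IAA10, IAA14, IAA15 and IAA18 stayed above 2-fold in all 14 alternatives. Quantile and median scaling left all 8 genes above 2-fold.

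Further probe sets found by the rule did not repeat these differences. The second probe set of IAA10 is listed for another gene as well, was under the limit for testing and had 5.95, 6.52 and 5.21 on arrays 1, 2 and 3 labelled dao, against 4.81, 4.62 and 5.05 on wild-type arrays 1, 2 and 3. The name IAA20 is also a synonym of a different gene, LOC4327919, otherwise called IAA4, so 2 genes answer to it. The 3 probe sets of LOC4327919 were dim and had log2 differences of 0.41, -0.06 and 0.24, with overlapping groups in the last 2. The values of IAA20 above are those of LOC4340245 alone.

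Within the groups the 8 genes shared an order of arrays. Among the arrays labelled dao, array 1 was the highest in 6 of 8 genes and array 2 the lowest in 7, shares that were 56.9% and 50.5% over all genes tested. Among the wild-type arrays, array 2 was the highest in 7 of 8 and array 1 the lowest in 6, against 40.3% and 33.6% over all genes tested. The median deviation from the group mean over the 8 genes was 0.12, -0.19 and 0.05 (log2) on arrays 1, 2 and 3 labelled dao, and -0.23, 0.21 and 0.03 on wild-type arrays 1, 2 and 3. Over all genes tested the same medians were 0.08, -0.05 and -0.02 on the arrays labelled dao, and 0.04, 0.0041 and -0.04 in wild type. IAA12 departed from this order in both groups, and IAA9 and IAA18 in 1 group each.

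**Figure D3:**
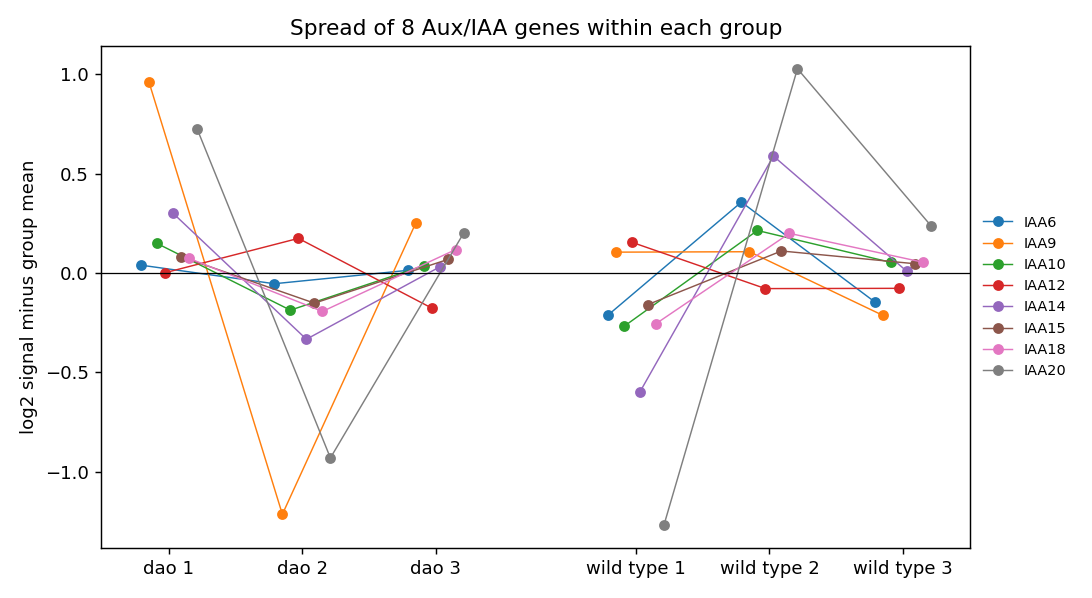
Log2 signal of the 8 genes on each array minus the mean of its group, with thin lines joining the arrays of a group only to follow a gene. IAA9, IAA14 and IAA20 spread most, and 7 of the 8 genes are lowest on dao 2 among the dao arrays.

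The signal of DAO followed the same order, from array 1 labelled dao down through dao 3, dao 2, wild type 2 and wild type 3 to wild type 1. Of the 8 genes 5 had exactly this order of all 6 arrays, namely IAA6, IAA10, IAA14, IAA15 and IAA20. It was found in 665 genes tested, or 4.26%, and in 177, or 35.9%, of the genes that passed upwards. Of the 14 other Aux/IAA genes tested 5 had it as well, and IAA4 did not, so it is not particular to the 8. Because the genes were chosen for the difference between the groups, only the order within each group is open to vary, and it was not tested.

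Markers of other tissues moved between arrays as well. The summed signal of 4 green tissue markers was 4207, 1084 and 3142 on arrays 1, 2 and 3 labelled dao, and 2735, 1315 and 1798 on wild-type arrays 1, 2 and 3, with 0 of 4 past the threshold. This sum had the same order of arrays as most of the 8 genes among those labelled dao, and the opposite order in wild type. The sum of 4 carpel and ovule markers was 787, 783 and 761 on arrays 1, 2 and 3 labelled dao, and 515, 766 and 657 in wild type. MADS58 made up most of this sum, at 739, 743 and 717 on the arrays labelled dao and 490, 744 and 631 in wild type. Of the 4 markers, MADS13, an ovule identity gene, had 29.4, 20.4 and 26.1 on the arrays labelled dao against 5.49, 6.58 and 6.47 in wild type. It reached the limit for testing only through the arrays labelled dao, since its wild-type mean of 6.18 lay under it, so its call is not counted. MADS21 was under the limit, and neither of the other two passed. The 3 mature pollen markers, 2 beta-expansins and an actin-depolymerising factor, were bright throughout, at 19545 to 21363 on the arrays labelled dao and 22680 to 24670 in wild type, and 0 of 3 passed. Of 9 tapetum and anther wall markers 8 were tested and 1 rose, where 3.16% of all genes tested did. It was the lipid transfer gene C6 (log2 1.63, limma adjusted p = 0.0468). The list had sums of 1812, 1054 and 1559 on arrays 1, 2 and 3 labelled dao and 1104 to 1124 in wild type. The C6 call was lost under most alternatives, single arrays left out among them (limma adjusted p up to 0.170 with 1 array left out). The 2 seed storage markers summed to 423 to 619 on the arrays labelled dao and 472 to 518 in wild type. GLUA2 made up nearly all of this, at 420 to 616 on the arrays labelled dao and 469 to 515 in wild type. Of the tapetum and anther wall markers, CYP703A3 was under the limit on every array, at 3.90 to 4.48, and PTC1 was dim, at 7.36 to 7.99 on the arrays labelled dao and 7.15 to 8.93 in wild type. The part of other tissues in the Aux/IAA differences was not tested.

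The rest of the auxin pathway was set beside these 8 genes through lists of genes found by name. Of 48 such genes tested, 4 rose (8.33%), 0 fell and 44 did not pass, where 3.95% of all genes tested passed in either direction. The 48 include 14 other Aux/IAA genes and IAA4, of a family whose passing genes had been taken out as the 8 described. These shares are therefore not comparable. On adjusted p alone 17 of the 48 were higher on the arrays labelled dao and 0 lower, where 12.3% of all genes tested were higher. The median log2 difference was 0.40 over the 48 genes and 0.11 over all genes tested. No gene was found by the names of the TIR1/AFB receptors, and neither of the 2 TOPLESS-related co-repressors TPR2 and TPR3 passed (log2 0.04 and 0.17).

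Of the 14 other Aux/IAA genes tested none passed both limits, since those that did are the 8 described. IAA4, counted apart, passed neither limit (log2 0.24, limma adjusted p = 0.421). On adjusted p alone 6 of the 14 were higher on the arrays labelled dao and 0 lower, where 12.3% of all genes tested were higher on that measure. These 6 had log2 differences of 0.61 to 0.94. The smallest adjusted p (limma) were those of IAA31 (0.94, adjusted p = 0.00405), IAA24 (0.64, adjusted p = 0.00523), IAA1 (0.88, adjusted p = 0.00720) and IAA30 (0.61, adjusted p = 0.0105). Without both arrays numbered 3 none of these 4 stayed under an adjusted p of 0.05 (limma, 0.266 to 0.326), and IAA24, IAA1 and IAA30 also went past it when either array numbered 3 was left out (limma, 0.0502 to 0.0674). Averaged over its probe sets, IAA31 stood at 0.39 (limma adjusted p = 0.0679). Of the 14, IAA23, IAA25 and IAA26, had differences below 0, none of which passed.

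**Figure D4:**
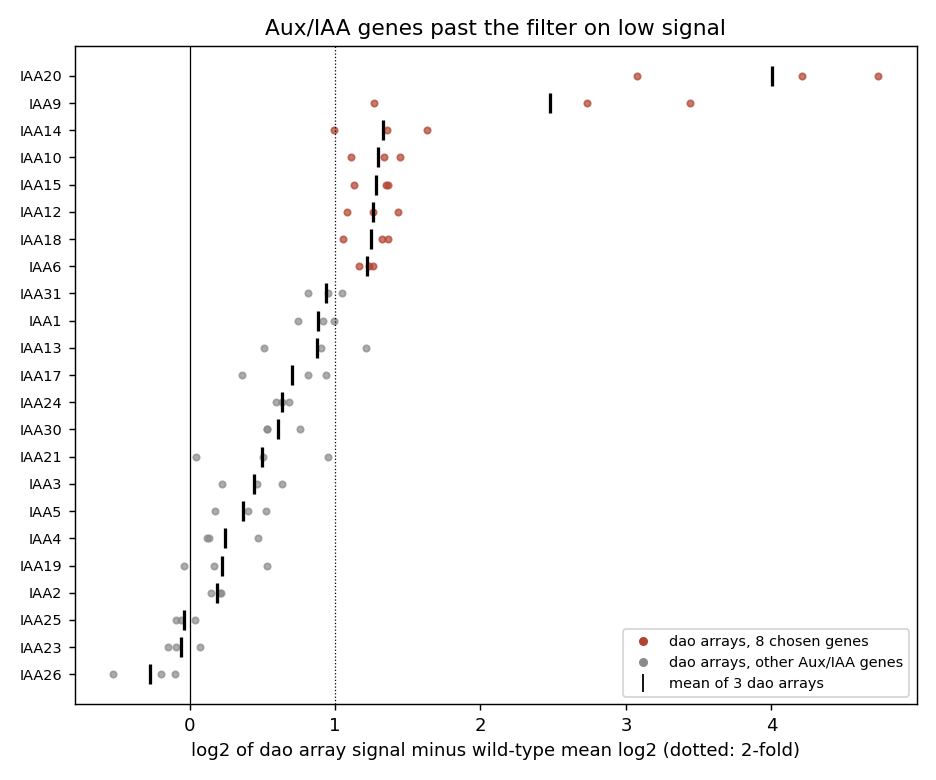
Log2 signal of each dao array minus the wild-type mean, for the 23 Aux/IAA genes past the filter on low signal, ordered by the mean of the 3 dao arrays (black bars). The 8 chosen genes, in red, are those past the dotted 2-fold line, which is how they were chosen; IAA9 and IAA20 stand apart from the 6 that lie between 1.22 and 1.33.

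Auxin response factors are the partners that Aux/IAA proteins hold in check. Of 17 tested, 1 rose, 0 fell and 16 did not pass, where 3.16% of all genes tested rose. The 1 that rose was ARF16 (LOC9270361), with 309, 179 and 245 on arrays 1, 2 and 3 labelled dao, against 82.8, 87.6 and 83.3 on wild-type arrays 1, 2 and 3 (log2 1.50, limma adjusted p = 0.00600). The groups did not overlap, and array 2 was again the lowest of those labelled dao. On adjusted p alone 6 of the 17 were higher on the arrays labelled dao and 0 lower, where 12.3% of all genes tested were higher. ARF12, ARF4 and ARF18 were among these but stood under 2-fold, at log2 0.58, 0.47 and 0.77 (limma adjusted p = 0.0158, 0.0160 and 0.0210). Without both arrays numbered 3 these 3 had an adjusted p of 0.340 to 0.412 (limma).

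GH3 genes encode enzymes that join auxin or jasmonate to amino acids, and several are classical early auxin genes. Of 9 tested, 1 rose and 8 did not pass, where 3.16% of all genes tested rose. On adjusted p alone 3 of the 9 were higher and 0 lower, where 12.3% of all genes tested were higher. GH3.1 had 162, 88.2 and 129 on arrays 1, 2 and 3 labelled dao, against 18.0, 50.1 and 46.3 on wild-type arrays 1, 2 and 3 (log2 1.82, limma adjusted p = 0.0280). It was lowest on array 2 labelled dao and on wild-type array 1, as most of the 8 Aux/IAA genes were. GH3-8, GH3.2 and GH3.4 had log2 differences of 0.45, 0.66 and 0.96 (limma adjusted p = 0.0120, 0.0269 and 0.0530). Without both arrays numbered 3, GH3-8 and GH3.2 had an adjusted p of 0.394 and 0.393 (limma).

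SAUR39, which encodes a small auxin-up RNA and is known in rice as a negative regulator of auxin synthesis and transport, rose, with 25.5, 25.0 and 26.5 on arrays 1, 2 and 3 labelled dao, against 8.49, 6.59 and 8.69 on wild-type arrays 1, 2 and 3 (log2 1.71, limma adjusted p = 0.00309). In this gene the arrays of each group were close together, unlike IAA9 or IAA20. Of 2 genes of auxin synthesis FIB, also listed as TAR2, an aminotransferase of the tryptophan pathway, rose, with 442, 398 and 388 on arrays 1, 2 and 3 labelled dao, against 42.1, 146 and 105 on wild-type arrays 1, 2 and 3 (log2 2.24, limma adjusted p = 0.0148). YUCCA1, which encodes the next enzyme of that route, stood at log2 -0.18 (limma adjusted p = 0.571). Neither of the 2 auxin efflux genes tested, PIN4 and PIN10a, passed, at log2 0.43 and 0.19. The calls of GH3.1 and FIB were lost without wild-type replicate 3, dao replicate 1 or dao replicate 3, and that of SAUR39 with log2(signal + 32), and without both arrays numbered 3 all 4 calls were lost (limma adjusted p = 0.243 to 0.334), at log2 differences of 1.99 for GH3.1, 2.42 for FIB, 1.76 for SAUR39 and 1.47 for ARF16. SAUR39 was not tested with the filter at the 60th percentile.

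Over all genes tested, those whose log2 signal over the 6 arrays was most like the mean standardised profile of the 8 genes were found by Pearson's r, which mostly reflects the difference between the groups that all these genes share. Among genes with a name the 5 most alike were ETF-QO (r = 0.998), of the electron transfer flavoprotein pathway of mitochondria, AGO1D (0.998), an argonaute, MADS7 (0.998), a floral organ identity gene also listed as AGL6, MTP3 (0.997), of the metal tolerance protein family, and IAA1 (0.997). Their places among all genes tested other than the 8 were 12, 14, 17, 26 and 27, so genes without a name were more alike. With 6 arrays in 2 groups such values of r are common, and 369 of the 15612 genes tested reached 0.98. IAA1 was the one Aux/IAA gene among the 5. It had 1525, 1288 and 1446 on arrays 1, 2 and 3 labelled dao, against 664, 880 and 772 on wild-type arrays 1, 2 and 3.

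Genes beside the 8 in the gene order of assembly ASM3414082v1 were looked at to see whether the differences extended over neighbours. Of 32 genes within 2 places, 18 had a tested probe set. Of these 1 passed, where 3.95% of all genes tested did in either direction. It was LOC4331150, the next gene after IAA10 (log2 1.27, limma adjusted p = 0.00405). This call was lost without both arrays numbered 3 (log2 1.13, limma adjusted p = 0.266). The tables used here give that gene no name, and whether it shares transcripts with IAA10 is not known here. The median over the 18 neighbours was 0.25 (log2), with a range of -0.28 to 1.27, and the median over all genes tested was 0.11. The neighbours of IAA20 that were tested had differences of -0.28, 0.08 and 0.68, all far below that of IAA20.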

How the data were processed

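Transcript levels were measured on 6 Affymetrix rice arrays, 3 labelled dao and 3 wild type, grouped and numbered by their titles. The authors deposited linear intensities, 1 for each probe set on each array. The submitters' processing notes name MAS5. Its version and the background correction are not stated there, and detection calls were not used here. Of 57381 probe sets, 123 controls were left out. Genes were named through the platform table and the names of assembly ASM3414082v1, and 22436 probe sets had 1 gene. A gene was represented by its probe set of highest mean signal.

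Signals were taken to log2 without further scaling. Probe sets under the 40th percentile of mean log2 signal (signal 6.33) were left out, and the others were compared by a 2-sided fit (lmFit, eBayes with trend, Benjamini-Hochberg) in limma 3.58.1 under R 4.3.3, with the 2-fold and 0.05 limits of the series' design text. On simulated data with these limits, 18 of 50 probe sets changed 2-fold and 44 of 50 changed 4-fold were called, with 2 false calls. Changes near 2-fold were thus often missed. The members and lists were chosen with earlier results of these data known, and the neighbours were added after the values were seen. Named genes of a list are those with its smallest adjusted p, up to 4. ASP1 (also OSAP1) and the LAX genes were left out of the co-repressor and transport lists, since their synonyms give other proteins. Promoter and protein sequences were not analysed here. The alternatives were other filters, scalings, a pseudocount of 32, no trend, the replicate number as a block, arrays left out, and probe sets averaged by gene.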

Additional observations from a re-analysis of the deposited data

How the results depend on the processing

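The median log2 difference of the 8 Aux/IAA genes was 1.16 to 1.40 over all alternatives (1.18 to 1.40 with 1 array left out), against 1.29. The number of genes past the threshold, 616, depended on the arrays used. It was 0 without both arrays numbered 3, where each group was also smaller, and no other pair of arrays was left out. It was 185 to 924 with 1 array left out, and 221 with log2(signal + 32). Dropping array 3 of dao or of wild type gave 185 and 191, dropping dao replicate 1 gave 381, and dropping dao replicate 2 gave 924. For probe sets the count of 1157 became 405 with log2(signal + 32), 0 without both arrays numbered 3 and 278 to 1684 with 1 array left out. The 4 other auxin genes became 0 without both arrays numbered 3 and 2 to 6 with 1 array left out, and YUCCA1 stood at log2 0.067, above 0, without both arrays numbered 3. Deviations of same-numbered arrays had correlations of 0.25, 0.18 and 0.09, and those of differently numbered arrays -0.23 to 0.13. Whether the numbers pair the samples is not known, and the main fit did not pair them. With the replicate block, 619 genes, 1136 probe sets and 4 other auxin genes passed. The cause of these changes was not tested. Signal over background is unknown, and this limits the folds of dim genes, IAA9 above all.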
